A study of Homo sapiens with 2 samples.

Results

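The TNF superfamily genes described here are those that the array annotation lists under a TNFSF or TNFRSF number, together with FAS and FASLG. The rule found 38 symbols of the 17280 gene symbols named on both arrays. All 38 had at least 1 measurable window, as did 17054 symbols in all. There were 14 ligand symbols and 24 receptor symbols, and 19 symbols lay on each array. One symbol, TNFSF5IP1, is an older name of PSMG2, which encodes a proteasome assembly chaperone and no ligand, so values are also given for the other 37. TNFRSF7, TNFSF7 and TNFRSF19L are older names of CD27, CD70 and RELT.

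The cells were Meg-01, a line established from human megakaryocytic leukemia, and were not treated. Their chromatin was pulled down with C-20, an antibody to the GATA1 C-terminus (the IP), or with normal goat IgG, and both pull-downs came from the same chromatin. After amplification the IP DNA carried Cy5 and the IgG DNA carried Cy3, and both were hybridized together to a promoter set of 2 Agilent arrays, chIP1 and chIP2. The arrays hold different probes, so each probe was measured once, with no replicate pull-down and no dye swap, and all calls below are by fold with no p-value. The arrays measure promoter DNA and no transcripts, so the identity of the cells was not checked against marker genes and nothing below says whether a gene was expressed.

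Ligands of the TNF superfamily are mostly membrane proteins that act as trimers, either on the cell surface or after shedding. Their receptors signal through adaptor proteins of the TRAF family toward NF-kB, and receptors with a cytoplasmic death domain can also recruit FADD and caspases and so trigger apoptosis. Decoy receptors bind ligand without passing on a full signal. GATA1 is the transcription factor of the red cell and megakaryocyte lineages and binds short GATA words in DNA.

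Each probe has a value of log2(IP/IgG), computed from the processed intensities and shifted so that the array median was 0. A window was the mean of 3 adjacent probes, each neighbor within 1000 bp of the center probe. Windows whose mean reached 1 (2-fold toward the IP) were called enriched, and those that reached -1 (2-fold toward the IgG) were called depleted. The peak of a gene is its highest window that holds a probe the array assigns to it. Distances are those of the center probe to the transcription start in the array annotation, with negative values upstream. Raw signals were low on both arrays. The median mean signal was 543 and 544 in the IP channel against 342 and 340 for negative control spots, and 412 and 440 in the IgG channel against 303 on either array. Single probes scattered widely, with an SD of 0.97 on the log2 scale. The superfamily genes had 494 probes on chIP1 and 519 on chIP2. None was dropped or saturated, and 5 had a signal replaced by a surrogate value near background.

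Promoter sequences are shown for 5 genes whose array windows near the start were at least 2-fold toward the IP and, for contrast, for FASLG, whose windows near the start were not. Each is the stretch of 250 bases directly upstream of a RefSeq start in GRCh38.p14, written 5′ to 3′ along the gene, with capitals marking any of 4 GATA words, namely the word AGATAA, the word AGATAG, the word TGATAA and the word TGATAG, on either strand (no words overlapped in these sequences). The build of the array coordinates is not given in the sources used here, so windows were not placed on these sequences. The RefSeq table lists 2 starts for TNFSF11, which lie 11416 bp apart, and both are shown. The array annotation has 3 starts, the outer ones 11426 bp apart, and measures the enriched window from the most downstream of them. The downstream RefSeq start was taken as its counterpart from this spacing alone. For TNFRSF19 the array has 2 starts 8916 bp apart, RefSeq has 2 starts 8948 bp apart, and the upstream one, from which the array measures the enriched window, is shown.

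TNFSF11, chr13:42562486-42562735, plus strand: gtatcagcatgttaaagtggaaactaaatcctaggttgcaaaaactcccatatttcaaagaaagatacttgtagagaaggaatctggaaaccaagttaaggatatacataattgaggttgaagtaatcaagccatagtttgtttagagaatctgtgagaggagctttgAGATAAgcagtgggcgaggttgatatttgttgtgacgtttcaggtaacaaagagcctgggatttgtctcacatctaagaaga
TNFSF11, chr13:42573902-42574151, plus strand: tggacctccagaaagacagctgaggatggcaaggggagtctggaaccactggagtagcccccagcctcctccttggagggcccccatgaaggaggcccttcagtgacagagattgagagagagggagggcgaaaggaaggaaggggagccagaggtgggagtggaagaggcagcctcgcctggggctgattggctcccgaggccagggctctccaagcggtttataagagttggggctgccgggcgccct
TNFRSF19, chr13:23570162-23570411, plus strand: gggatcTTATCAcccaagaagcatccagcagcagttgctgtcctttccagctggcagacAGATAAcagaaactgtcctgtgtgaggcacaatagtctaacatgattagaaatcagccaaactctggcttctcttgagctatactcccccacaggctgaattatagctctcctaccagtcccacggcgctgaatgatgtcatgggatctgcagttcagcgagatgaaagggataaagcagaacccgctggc
TNFSF18, chr1:173050942-173051191, minus strand: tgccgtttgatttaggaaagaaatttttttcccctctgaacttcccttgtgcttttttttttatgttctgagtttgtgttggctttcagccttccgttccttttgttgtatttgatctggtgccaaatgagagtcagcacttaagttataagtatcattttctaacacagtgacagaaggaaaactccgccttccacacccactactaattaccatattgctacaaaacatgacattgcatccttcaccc
TNFRSF8, chr1:12063053-12063302, plus strand: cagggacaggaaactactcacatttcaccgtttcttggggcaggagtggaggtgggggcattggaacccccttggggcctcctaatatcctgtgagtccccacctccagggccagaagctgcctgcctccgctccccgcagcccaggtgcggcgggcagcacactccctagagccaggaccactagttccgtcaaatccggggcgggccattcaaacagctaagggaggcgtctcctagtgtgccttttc
TNFRSF21, chr6:47309906-47310155, minus strand: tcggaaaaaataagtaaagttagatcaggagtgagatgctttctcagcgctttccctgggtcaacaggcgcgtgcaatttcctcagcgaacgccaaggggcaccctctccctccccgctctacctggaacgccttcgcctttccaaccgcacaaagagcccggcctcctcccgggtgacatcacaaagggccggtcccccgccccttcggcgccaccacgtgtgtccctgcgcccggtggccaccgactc
FASLG, chr1:172658853-172659102, plus strand: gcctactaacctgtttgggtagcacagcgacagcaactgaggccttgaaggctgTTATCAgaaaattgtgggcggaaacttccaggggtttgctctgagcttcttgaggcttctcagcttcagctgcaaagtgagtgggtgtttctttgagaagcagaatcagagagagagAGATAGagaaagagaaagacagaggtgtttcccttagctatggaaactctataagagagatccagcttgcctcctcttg

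The TNFRSF19 stretch holds 2 words, the word TTATCA (which reads TGATAA on the other strand), beginning 244 bases before the start, and the word AGATAA, beginning 191 bases before it. The upstream TNFSF11 stretch holds the word AGATAA at 82 bases before its start, whereas the stretch at the downstream start holds none. The FASLG stretch holds 2 words, at 196 and 79 bases before the start. No word was found in the stretches of TNFSF18, TNFRSF8 and TNFRSF21. Of the 37 genes, 25 had an entry in the table, with 33 starts in all. At least 1 word was found upstream of 9 of the 33 starts, or 27.3%, against 22.3% of 35116 promoters in the table. Counted as genes, 9 of the 25 held a word at any start, or 36.0%, against 26.2% of the 27305 symbols in the table. Of the 5 genes with an entry and an enriched window near the start, 2 held a word at any start. Of the other 20 genes, 7 held one, FASLG among them. At the start taken as the one nearest the enriched window, only TNFRSF19 held a word, or 1 of 5, since the TNFSF11 word lies at its other start. A match of letters is a description and not a site, and a missing match says only that these letters are not in this stretch.

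Enriched windows were found in 17 of the 38 genes, or 44.7%, where 57.1% of all genes with a window had one. The strongest was in TNFSF12, which encodes a ligand of the receptor TNFRSF12A. Next came TNFSF18, which encodes the ligand of TNFRSF18, a receptor on T cells, and TNFRSF13B, a receptor on B cells. With them stood FAS, the death receptor for FASLG, and TNFSF11. The peaks of TNFSF18, TNFRSF13B, FAS and TNFSF11 could not be ordered among themselves. Unlike that of TNFSF12, these peaks were among the dimmest 10% of windows. Depleted windows were also found in 17 genes, against 52.9% of all genes. Windows on both sides occurred in 8 genes, where the share over all genes was 31.3%. Neither kind was found in 12 of the 38 genes, beside 3635 of all 17054 genes with a window. Without TNFSF5IP1, 17 of 37 genes had an enriched window and 16 a depleted one. The median of the highest window was 0.93 over the 38 genes and 1.09 over all genes. Counted as windows, 61 of 888 were enriched, or 6.87%, beside 7.62% of all windows, and 87 were depleted, or 9.80%, beside 9.65%. The shares of enriched genes and windows lay below those of all genes. A stricter call asked that each of the 3 probes be at least 2-fold toward the IP. It was met in 9 genes, or 23.7% of the 38, where 23.2% of all genes met it.

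**Figure D1:**
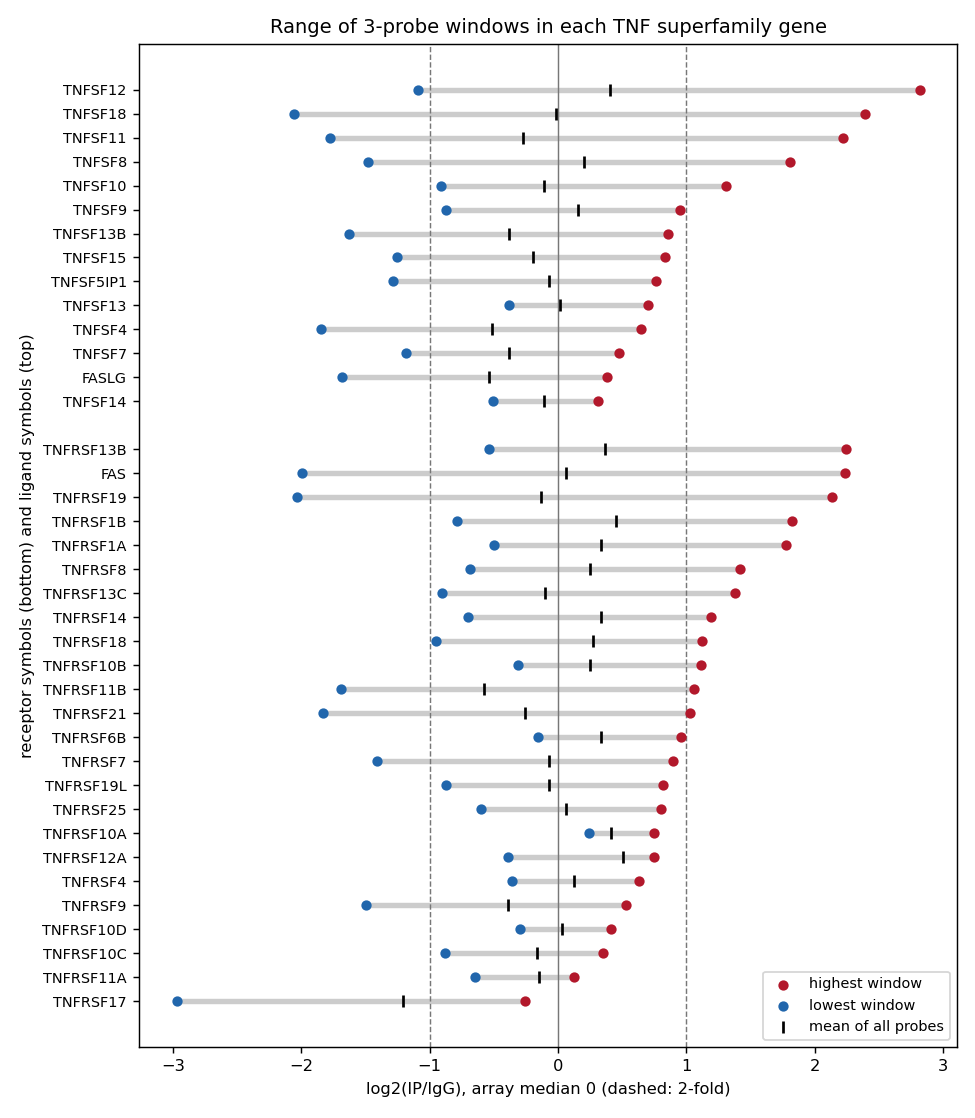
Highest window (red), lowest window (blue) and mean of all probes (black tick) of each TNF superfamily gene on the log2(IP/IgG) scale, with ligand symbols above and receptor symbols below. TNFSF12 reached 2.82, TNFRSF17 stayed below 0 in all its windows and fell to -2.97, and the means of all probes lay near 0 for most genes.

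**Figure D2:**
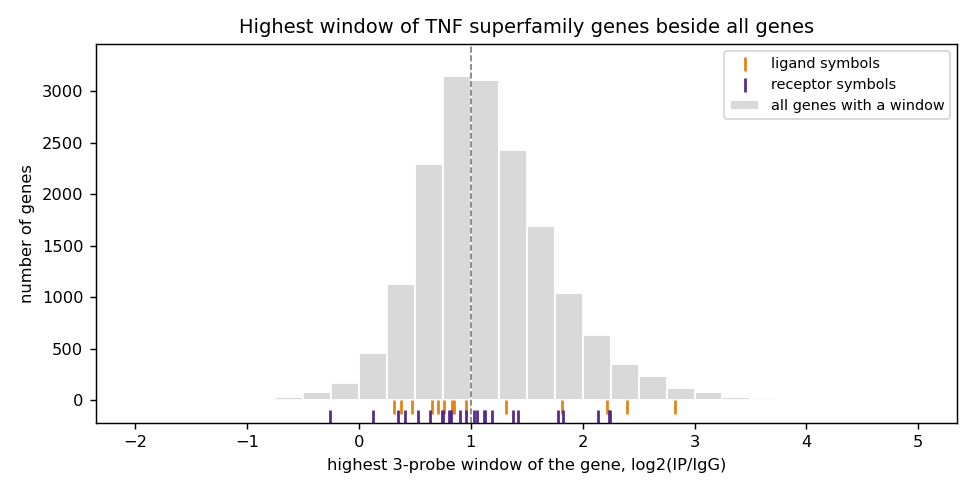
Histogram of the highest window of each of 17054 genes in steps of 0.25 on the log2(IP/IgG) scale, with ligand symbols (orange) and receptor symbols (purple) as ticks below the axis. The ticks span the body of the histogram, and 21 of 38 lie left of the 2-fold line.

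Among the ligands, 5 of 14 symbols had an enriched window and 10 of 14 had a depleted one, beside the 57.1% and 52.9% of all genes. Without TNFSF5IP1 the counts were 5 of 13 and 9 of 13. TNFSF12 had the highest window of the superfamily. Its 3 probes had processed IP intensities of 1817, 3555 and 2274 against IgG intensities of 147, 664 and 419, or log2 ratios of 3.63, 2.42 and 2.43. The window mean was 2.82, a 7.08-fold IP excess, and exceeded the highest window of 98.8% of the genes on that array. It lay in the gene body, 6647 bp beyond the start, at chr17:7399586-7399908 in the array coordinates, and opened a run of 4 enriched windows over 1504 bp. The array assigns it to TNFSF12 alone, although its middle lies 2582 bp upstream of the start of TNFSF13, the neighboring ligand gene, whose own highest window was 0.71. Within 1000 bp of the TNFSF12 start the highest window was 0.81.

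TNFSF18 had 2 enriched runs. The run nearer the start, at chr1:169751800-169752555, peaked 354 bp upstream with log2 ratios of 1.88, 1.77 and 2.68 and IP intensities of 1771, 430 and 1226 against 481, 126 and 192. All 3 probes of this window, with a mean of 2.11, were past 2-fold. The higher run peaked 2827 bp upstream with a mean of 2.40 but uneven probes of 4.41, 0.71 and 2.06. Its IgG intensities were 24.8, 80.3 and 26.8, and its windows' summed intensity stood at the 1.09th percentile of all windows on the array. The same gene also held a window of -2.06, at 2228 bp downstream of the start.

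TNFSF11, the ligand that drives osteoclast formation, peaked 486 bp upstream of the most downstream of its array starts, at chr13:42045657-42046002. The log2 ratios were 2.62, 2.22 and 1.81, with a mean of 2.22. Intensities were very low, at 129, 135 and 450 in the IP channel and 20.9, 28.7 and 127 in the IgG channel, and the window stood at the 1.76th percentile of intensity. TNFSF11 also held 6 depleted windows, the lowest at -1.77 and chr13:42038703-42039452, which the array measures from another, more upstream start. TNFSF8, the ligand of TNFRSF8, peaked 963 bp downstream of the start with ratios of 2.22, 1.28 and 1.94 and a mean of 1.81, again at low intensity (the 4.39th percentile). TNFSF10, the apoptosis-inducing ligand of the TNFRSF10 receptors, had 1 enriched window of 1.31, at 1815 bp upstream, whereas its highest window within 1000 bp of the start was -0.24.

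The other ligands stayed under 2-fold toward the IP. Their highest windows were 0.95 in TNFSF9, 0.85 in TNFSF13B, the B cell survival factor, 0.83 in TNFSF15, 0.76 in TNFSF5IP1, 0.71 in TNFSF13, 0.65 in TNFSF4, 0.47 in TNFSF7, 0.38 in FASLG and 0.31 in TNFSF14. TNFSF14 was one of the 3 genes with the lowest peaks, with probes of -0.20, 0.26 and 0.88. Several of these genes leaned toward the IgG. TNFSF4, a costimulatory ligand for T cells, had 10 depleted windows of 34, with the lowest at -1.85 and 1341 bp upstream, where the IP intensities were 212, 255 and 121 against 738, 1051 and 399. FASLG had 4 depleted windows, down to -1.69 at 3708 bp upstream, and 16 of its 24 probes were below 0. TNFSF13B had 6, down to -1.63 at 682 bp upstream.

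Of the receptors, 12 of 24 had an enriched window and 7 of 24 a depleted one, beside 57.1% and 52.9% of all genes. The death domain receptors held an enriched window in 4 of 6 genes, decoy receptors in 1 of 4 and the remaining receptors in 7 of 14. These counts are small and each stands beside the same 57.1% of all genes.

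FAS had the highest window of the death domain receptors. It lay 4018 bp upstream, at chr10:90736114-90736673, with log2 ratios of 2.60, 2.25 and 1.87 and a mean of 2.24. IP intensities were 1560, 589 and 134 against IgG intensities of 257, 123 and 36.6. The lowest FAS window was nearer the start, at 523 bp upstream and chr10:90739592-90739950, with ratios of -1.47, -2.44 and -2.08 and a mean of -1.997. Here the IgG intensities of 1073, 2040 and 3164 exceeded the IP intensities of 389, 377 and 752, a 3.99-fold IgG excess. FAS thus held 4 enriched windows, all 1998 bp or more upstream, and 5 depleted ones, 3 of them just upstream of the start. Within 1000 bp of the start its highest window was 0.75.

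TNFRSF1A, the main signaling receptor for TNF, had the brightest and most even window of the 10 genes with the highest peaks. At 3916 bp upstream, chr12:6325045-6325629, the IP intensities were 5014, 4349 and 2832 against 1300, 1312 and 880. The log2 ratios were 1.94, 1.72 and 1.68 and the mean was 1.78, with an SD among the 3 probes of 0.14 and intensity at the 86.6th percentile. No window of TNFRSF1A was depleted. TNFRSF10B, a receptor for TNFSF10, peaked 224 bp downstream of the start with uneven ratios of 0.35, 1.99 and 1.01 and a mean of 1.12, from bright probes (the 92.0th percentile). TNFRSF21 peaked 810 bp downstream with ratios of 0.67, 0.92 and 1.499 and a mean of 1.03, and held 8 depleted windows down to -1.83 at 1778 bp upstream. The highest windows of TNFRSF25 and TNFRSF10A were 0.80 and 0.75, and TNFRSF10A was the only one of the 38 genes without a window below 0.

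The decoy receptors peaked at or below 1.06. TNFRSF11B, the soluble decoy for TNFSF11, had 1 enriched window, at 97 bp downstream of the start, with ratios of 1.41, 1.32 and 0.45 and a mean of 1.06. It also had 10 depleted windows of 31, down to -1.69. The highest windows of TNFRSF6B, TNFRSF10D and TNFRSF10C were 0.96, 0.41 and 0.35. The 3 probes of the TNFRSF6B window were close together, at 0.99, 0.99 and 0.90, just under 2-fold.

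Of the remaining receptors, TNFRSF13B, TNFRSF19, TNFRSF1B and TNFRSF8 were among the 10 genes with the highest peaks. TNFRSF13B peaked 4151 bp upstream with ratios of 3.89, 1.55 and 1.30 and a mean of 2.25, from dim probes with IgG intensities of 27.4, 99.7 and 77.5 (the 3.39th percentile). TNFRSF19, a receptor of epithelial and neural tissues, peaked 467 bp upstream of the more upstream of its array starts. Its ratios were 2.25, 2.81 and 1.35 with a mean of 2.14, from IP intensities of 460, 3388 and 2196 against 96.4, 480 and 860. TNFRSF19 also had 7 depleted windows of 60, in 4 separate runs, down to -2.03. TNFRSF1B, the second TNF receptor, had more enriched windows than any other of the 38 genes, at 9 of 34. They formed 3 runs, with peaks of 1.68 at 3890 to 4663 bp upstream, 1.82 at 2082 bp upstream and 1.30 at 2008 bp downstream. Its highest window had ratios of 1.69, 1.58 and 2.19, and its highest window within 1000 bp of the start was 0.28. TNFRSF8, a lymphocyte activation receptor, peaked 537 bp downstream with ratios of 2.09, 0.93 and 1.25 and a mean of 1.42.

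The peaks of TNFSF18, TNFRSF13B, FAS and TNFSF11 lay between 2.22 and 2.40 and could not be ordered. The SD among their 3 probes ran from 0.36 to 1.87, and the scanner's own error of the mean was 0.21 to 0.33. The smaller peaks were 1.38 in TNFRSF13C, 1.19 in TNFRSF14 and 1.12 in TNFRSF18. In TNFRSF13C 1 probe of 2.99 stood between probes of 0.81 and 0.35. TNFRSF7, TNFRSF19L, TNFRSF12A, TNFRSF4 and TNFRSF9 peaked between 0.53 and 0.90. The peak of TNFRSF4 was shared with the neighboring gene SDF4. At the low end, TNFRSF11A, the signaling receptor for TNFSF11, peaked at 0.12 with probes of 0.46, 0.04 and -0.13. TNFRSF17, a receptor of plasma cells, peaked at -0.26 with probes of 0.29, -1.16 and 0.11. It had 6 depleted windows of 12 and 15 of 17 probes below 0. Its lowest window, -2.97 at 1724 bp downstream, was the lowest of the superfamily and came from dim spots, with IP intensities of 12.6, 19.3 and 284 against 134, 138 and 1779.

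**Figure D3:**
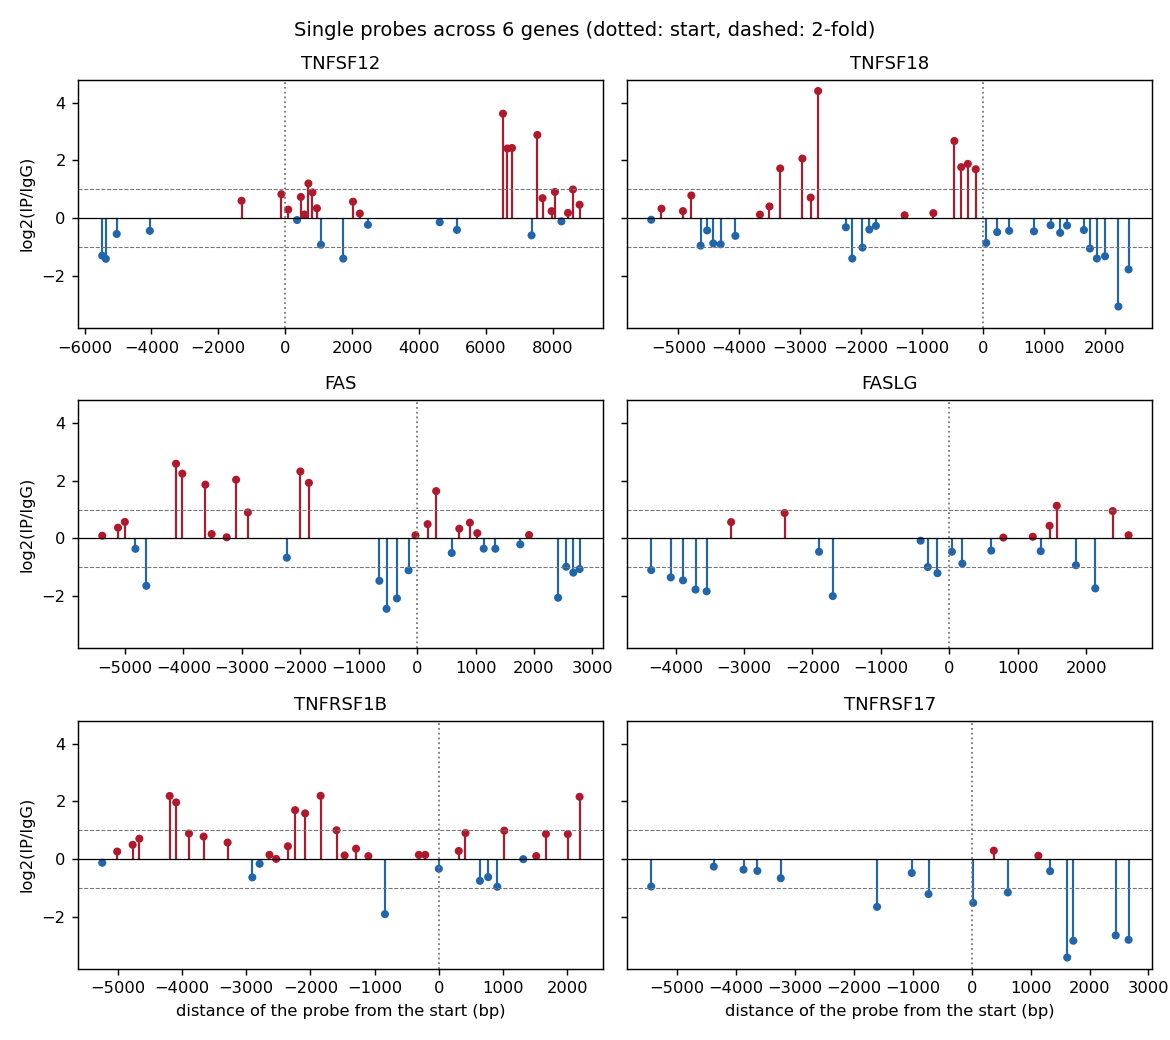
Log2(IP/IgG) of each probe against its distance in bp from the start (dotted line) for 6 genes, with red above and blue below 0 and dashed lines at 2-fold. FAS has its positive probes past 2-fold mostly far upstream and a block of negative probes just upstream of the start, and 15 of the 17 TNFRSF17 probes are below 0.

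Near the start, that is with a center probe within 1000 bp, 8 of the 38 genes had an enriched window, against 33.5% of the genes with such a window. They were TNFSF11, TNFRSF19, TNFSF18, TNFSF8, TNFRSF8, TNFRSF10B, TNFRSF11B and TNFRSF21. A depleted window near the start was found in 7 genes, where the share over all genes was 17.4%. By the annotation of the center probe, the highest window of 16 genes lay in a promoter, 10 of them past 2-fold. That of 22 genes lay inside a gene, 7 of them past 2-fold. For TNFRSF4 the center probe of that window is not one the array assigns to TNFRSF4. The same split was not computed over all genes, so these counts cannot be read as a preference of the superfamily. In the 500 bp downstream of the start, 4 of 101 windows were enriched, or 3.96%, against 9.65% of the windows of all genes. Between -6000 and -4000 bp, 7 of 65 windows were enriched, or 10.8%, against 6.86%. Probes of 38 genes lay in the first of these bins and of 29 in the second. The enriched windows are few and overlapping windows share probes, so the shares are descriptions.

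**Figure D4:**
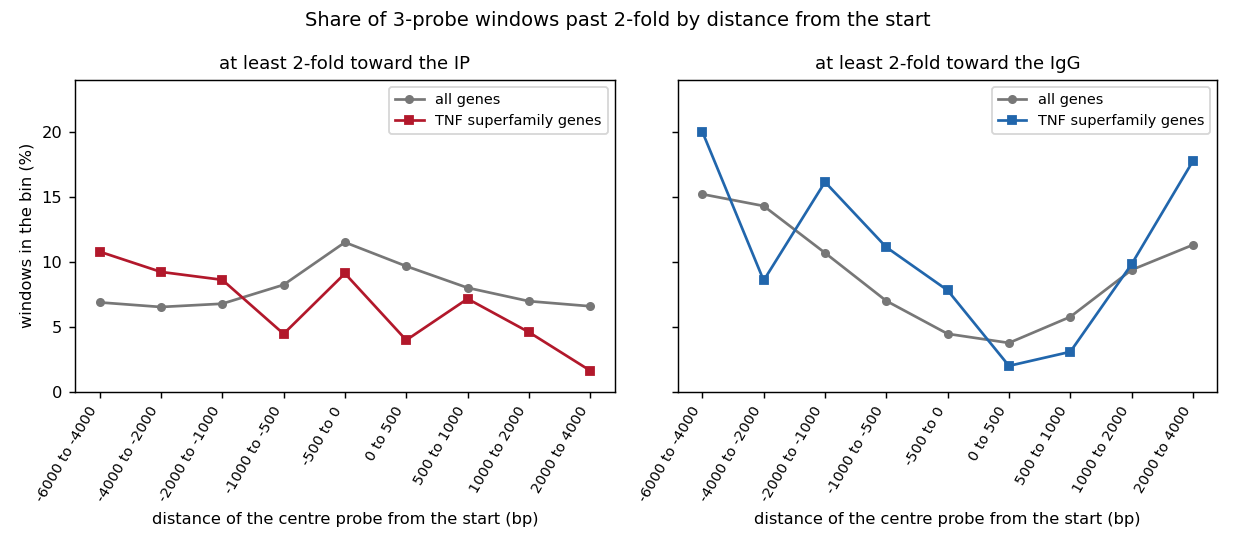
Share of windows at least 2-fold toward the IP (left) and toward the IgG (right) by distance of the center probe from the start in bp, for the 38 superfamily genes (colored squares) and all genes (gray circles). The enriched share of all genes peaks at 11.5% in the 500 bp upstream of the start, where that of the superfamily genes is 9.09%.

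Several of the strong windows were dim. Of the 17 genes with an enriched window, 5 had their peak among the dimmest 10% of windows on the array (TNFSF18, TNFRSF13B, FAS, TNFSF11 and TNFSF8) and 5 had it above the median intensity. The same counts over all genes with an enriched window are not given here, so these cannot be read as particular to the superfamily. With normexp background correction of the raw signals, the peak values were 1.21 in TNFSF18, 0.42 in TNFRSF13B, 0.63 in FAS, 0.27 in TNFSF11 and 0.74 in TNFSF8. In every alternative the highest window of a gene was taken anew, so it can be a different window from the dim one above. Of these 5 genes, TNFSF18 alone had a window past 2-fold with normexp. When both channels had to be well above background, the TNFSF18 peak was 2.11 and no longer 2.40. The part of low intensity in the ratios of these genes was not tested. TNFSF12, TNFSF18, TNFRSF19, TNFRSF1B, TNFRSF1A, TNFRSF8 and TNFRSF14 had a window at or above 2-fold in all 8 alternative computations of the values. It need not be the same window each time. The other 10 genes fell under 2-fold in at least 1.

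Ligands and their receptors are set side by side here by their highest windows, with no test. FASLG peaked at 0.38 and FAS at 2.24. TNFSF10 peaked at 1.31, and its receptors TNFRSF10B and TNFRSF10A at 1.12 and 0.75, with the decoys TNFRSF10C, TNFRSF10D and TNFRSF11B at 0.35, 0.41 and 1.06. TNFSF11 peaked at 2.22, its receptor TNFRSF11A at 0.12 and its decoy TNFRSF11B at 1.06. TNFSF12 peaked at 2.82 and TNFRSF12A at 0.75. TNFSF13 and TNFSF13B peaked at 0.71 and 0.85, and their receptors TNFRSF13B, TNFRSF13C and TNFRSF17 at 2.25, 1.38 and -0.26. TNFSF14 peaked at 0.31 and TNFRSF14 at 1.19, and TNFSF15 peaked at 0.83 and TNFRSF25 at 0.80, while TNFRSF6B, a decoy for both ligands, peaked at 0.96. Both genes of a pair were past 2-fold in TNFSF8 with TNFRSF8 (1.81 and 1.42), in TNFSF18 with TNFRSF18 (2.40 and 1.12) and in TNFSF10 with TNFRSF10B. The same held for TNFSF10 and for TNFSF11 with the decoy TNFRSF11B. Both were under 2-fold in TNFSF4 with TNFRSF4 (0.65 and 0.63), TNFSF7 with TNFRSF7 (0.47 and 0.90), TNFSF9 with TNFRSF9 (0.95 and 0.53) and TNFSF15 with TNFRSF25. This was also so for TNFSF14 and TNFSF15 with the decoy TNFRSF6B, and for TNFSF13 and TNFSF13B with TNFRSF17.

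Of 10 superfamily genes that the array lists under other symbols, 8 had an enriched window, beside the 57.1% of all genes, and the median peak was 1.39. NGFR, the low-affinity neurotrophin receptor, peaked at 2.53 and 5029 bp upstream. CD40LG, the ligand of T cells for CD40, peaked at 2.39 and had 14 enriched windows of 36, though its peak was dim (the 1.34th percentile). EDA, the ligand of ectodermal development, peaked at 2.35 and had 12, and its peak was also dim (the 1.78th percentile). TNF itself peaked at 2.06, at 206 bp upstream of its start, with probes of 1.00, 2.90 and 2.28, so that TNF and both its receptors TNFRSF1A and TNFRSF1B were past 2-fold. LTB peaked at 1.499. Toward the IgG, 6 of the 10 had a depleted window, and EDA2R had 22 of 28, down to -3.44. The share of all genes on that side was the 52.9% given above. These 10 genes had a median of 29.5 windows, beside 23 over all genes. Counted as windows, 44 of 330 were enriched, or 13.3%, beside 7.62% of all windows, and 9.39% were depleted, beside 9.65%. CD40LG and EDA held 14 and 12 of the 44 enriched windows, and no other of the 10 genes held more than 7.

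Of 30 genes of the downstream pathway, 20 had an enriched and 20 a depleted window, with a median peak of 1.16, beside the same 57.1% and 52.9% of all genes. These genes had a median of 28.5 windows, beside 23 over all genes, and more windows give more chances of a call. Counted as windows, 69 of 899 were enriched, or 7.68%, beside 7.62% of all windows. Depleted were 66, or 7.34%, beside 9.65%. The adaptors were enriched in 7 of 10 genes, the caspase arm in 3 of 4, the inhibitors in 3 of 5 and the NF-kB arm in 7 of 11. TANK, which binds TRAF proteins, peaked at 2.49 and 1892 bp upstream. DAXX, an adaptor first found with FAS, peaked at 2.37 and 171 bp upstream, with very bright probes of 2.34, 2.67 and 2.11 (percentile 98.2 of intensity). TRAF5, another TRAF adaptor, peaked at 2.30, 505 bp downstream and at low intensity (the 2.05th percentile). NFKB1, which encodes an NF-kB subunit, peaked at 2.22 with 1 probe of 4.19 beside lower probes of 1.39 and 1.08. CFLAR, the inhibitor of caspase activation at death receptors, peaked at 2.03 with even and bright probes of 2.08, 2.06 and 1.93. BIRC3, an inhibitor of apoptosis, had 14 depleted windows of 35 and no enriched one.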

How the data were processed

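Values come from 2 Agilent promoter arrays of untreated Meg-01 cells, each a GATA1 IP (Cy5) against normal goat IgG (Cy3). The authors deposited scanner output of Agilent Feature Extraction 9.5.3.1. Per the file headers, the deposited intensities were corrected by subtraction of a spatial surface, by detrending and by a linear dye factor, with surrogate values near background. The deposited log10 ratios were IP over IgG, with an error score per spot and a p-value from the scanner's error model. The deposited series values hold the same log10 ratios. The study's own lowess and median normalization and peak calling were not repeated. The genome build of the array is not given in the sources used here.

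Here log2 ratios of processed intensities were centered on each array's median. Control spots, non-uniformity outliers and probes that neither channel raised well above background were removed, which kept 237004 of 237210 and 236864 of 237201 genomic probes. A gene's peak was its highest window holding a probe annotated to it. The window code was tested on simulated data. No test over samples was possible with 1 hybridization per probe. The number of arrays limits precision, and the SD of 3 probes and the scanner error are not replicate errors.

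The members, gene lists and alternatives were chosen with earlier results of these data known. Any of the 38 genes could be named. Probe values are given for the 10 highest peaks, for genes with a near-start peak of at least 1 and for the 3 lowest peaks, and in the other lists the 5 highest were named. Other genes, windows and probe values (BIRC3, EDA2R, the lowest windows, the TNFRSF6B and TNFRSF13C probes, the pair TNFSF7 and TNFRSF7) were chosen after their values were seen. FASLG, the promoter shown for contrast, was likewise chosen with its window values known. Promoters came from RefSeq (GRCh38.p14). TNFSF8, TNFRSF10A, TNFRSF10B, TNFRSF10C, TNFRSF10D, TNFRSF11B, TNFSF12, TNFRSF12A, TNFSF7, TNFRSF4, TNFRSF13C and TNFRSF17 had no entry. Work was done in Python 3.11.15 (numpy 2.4.6, pandas 2.3.3) and R 4.3.3 (limma 3.58.1). Alternatives were loess (span 0.3), normexp (offset 50), the series values, other filters, single probes, 5-probe windows, 1.5-fold and 3-fold thresholds, the mean of all probes and a call on the deposited p-values (under 0.001 at the center and 0.1 at a neighbor).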

Additional observations from a re-analysis of the deposited data

How the results depend on the processing

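No paired analysis was possible because no probe was on both arrays and the results come from no test. With 1 hybridization per probe, no replicate could be left out. The counts were within 1.5 times the main ones with loess, the series values and both filters on dim probes. With normexp background correction, 10 of 38 genes had an enriched and 8 a depleted window (3 ligands, 7 receptors), and 12 of 30 signaling genes were enriched, while the share of all genes fell from 57.1% to 33.1% enriched and from 52.9% to 23.9% depleted. With single probes, 30 had an enriched and 28 a depleted value (11 ligands, 19 receptors, 21 genes near the start), beside 86.1% and 81.1% of all genes and 59.3% near the start, and the median peak rose to 1.39, beside 1.73 over all genes. TNFRSF17 then turned from -0.26 to 0.29. At 1.5-fold the counts were 30 and 28 (11 ligands, 19 receptors, 19 near the start), beside 85.0% and 78.4% of all genes and 64.4% near the start. At 3-fold they were 9 and 10 (5 receptors, 4 near the start, 7 signaling genes, 4 relatives), beside 20.6% and 22.3% of all genes and 9.02% near the start, so that the enriched share of the 38 genes, 23.7%, stood above that of all genes and not below it. With the scanner's error model they were 30 and 28 (12 ligands, 18 near the start), beside 85.2% and 79.8% of all genes and 63.4% near the start. Windows of 5 probes left 11 of 30 signaling genes with an enriched window, while the share of all genes fell from 57.1% to 34.1%. The median over genes of the mean of all probes was -0.0404, the opposite sign to the median peak, since a peak is the highest of many windows. In rules chosen after the data were seen, each of the 3 probes past 2-fold left 9 genes and 4 near the start, beside 23.2% and 11.3% of all genes, and removal of the distance trend left 5 near the start, beside 23.2%. Over the 8 alternative computations, 18 of 304 peaks fell below 2-fold and 17 rose above it. The other peaks stayed on the same side of 2-fold, 1 of them (TNFRSF17) with a change of sign. None fell below with single probes, the series values or either filter on dim probes, so these say little on how stable a call is. Each peak was the gene's highest window in that computation, whichever window it was.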
